A study of Homo sapiens with 16 samples.

Results

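The genes described here are 36 human genes of fatty acid metabolism, chosen by name: 15 of synthesis, chain elongation and desaturation, 4 that activate fatty acids to acyl-CoA, 9 of triglyceride synthesis, lipid droplets and lipolysis, 6 of mitochondrial beta oxidation, and 2 of uptake and binding. Of the 36, 34 had an array probe set that named no other gene, among 18417 such genes on the array, and all 34 were bright enough to be tested, as were 12639 genes in all. The uptake gene FABP5 was represented only by probe sets that it shares with FABP5P3, and it and the activating enzyme ACSL3 were not analysed here. A gene with more than 1 probe set was represented by its brightest. Of the members this touched only DGAT1, whose 2 probe sets held the same values in every line.

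RNA was measured on Affymetrix whole-transcript arrays in 4 human cell lines labelled as derived from multiple myeloma, a plasma cell cancer: RPMI8226, KMS-11, U266 and IM-9. IM-9 is widely described elsewhere as a B lymphoblastoid line transformed by Epstein-Barr virus. From each line there were 2 arrays of parental cells, grown for 24 hours at 20% oxygen, and 2 arrays of its hypoxia-resistant derivative (RPMI8226-HR, KMS-11-HR, U266-HR and IM-9-HR), grown for 24 hours at 1% oxygen, which made 8 groups and 16 arrays. No HR cells at 20% oxygen and no parental cells at 1% were among the samples, and resistance and oxygen level therefore cannot be told apart in any comparison. Each HR line stands for 1 derivative of its parent, and how it was selected is not given in the labels. Whether a group's arrays hold separate cultures is not in the labels, so all p-values within lines measure only the spread between these arrays, which may be technical.

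Cells build fatty acids in the cytosol from citrate: ACLY splits it to acetyl-CoA, ACACA makes malonyl-CoA, and FASN joins these units to palmitate with NADPH that ME1, among others, supplies. ELOVL enzymes lengthen the product, SCD, FADS1 and FADS2 insert double bonds, and much of this set is switched on by the transcription factor encoded by SREBF1. Fatty acids joined to coenzyme A by ACSL enzymes are stored as triglyceride in lipid droplets or are carried into mitochondria through CPT1A for beta oxidation, which needs oxygen indirectly, through the respiratory chain. Desaturation uses oxygen directly. HILPDA and PLIN2, a pair of lipid droplet proteins, are known targets of hypoxia-inducible factors.

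Pearson's r across genes, which are not independent replicates, was 0.993 to 0.996 within a group, 0.984 to 0.995 between HR and parental arrays of the same line, and 0.915 to 0.948 for arrays from different lines. Array medians lay between 6.22 and 6.34 on the log2 scale. Plasma cell markers were above 6.27, the median of all values in the table, for 6 or 7 of 8 genes in every group, SDC1, XBP1, IRF4 and PRDM1 among them. B cell markers were above it for 7 of 7 genes in parental IM-9, 6 in IM-9-HR and 1 to 4 in the other lines. Of 7 adipocyte markers, 1 or 2 were above it (CFD, and in RPMI8226 also PLIN1), and the defining ADIPOQ, LEP and FABP4 were below it in every group. Differences below are HR minus parental in log2 units, with standard errors from the limma fit of all 16 arrays (n = 2 arrays per group), and "rose" or "fell" means a Benjamini-Hochberg adjusted p under 0.05 over the 12639 genes.

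The members past the threshold were mostly lower in HR cells of KMS-11, U266 and IM-9, and more were higher than lower in RPMI8226. In RPMI8226, 9 of 34 members rose and 6 fell, beside 10.7% and 15.3% of all genes tested. In KMS-11, 0 rose and 6 fell, beside 2.44% and 5.83% of all genes, and in U266, 3 rose and 11 fell, beside 9.68% and 8.42%. In IM-9, 3 rose and 17 fell, beside 14.4% and 21.3% of all genes. THRSP and CD36, like 249 of all genes tested, exceeded 6.27 only in the arrays of 1 group and so had to differ from its partner; without them 5 members fell in RPMI8226 and 2 rose in U266. At least 1 line called 29 of the 34 members (27 of 32 without this pair), beside 58.0% of all genes, and ACACB, ELOVL4, GPAM, CPT2 and HADHB were called in none. Members called in 3 or more lines numbered 9, beside 6.04% of all genes. A set of 10 members rose in 1 line and fell in another, beside 10.8% of all genes, and 0 were called the same way in 4 lines, beside 0.427%. Single arrays weighed on 3 of the lines: without the second RPMI8226-HR array 6 members rose there, without the first parental KMS-11 array 3 members fell there, and in U266 5 fell without the first parental array, 6 fell without the first HR array and 1 rose without that HR array.

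All called genes of the synthesis and desaturation group were higher in HR cells in RPMI8226 and, except THRSP in U266, lower in the other 3 lines. In RPMI8226, 7 of its 15 genes rose and 0 fell, with a median difference of 0.19 against -0.01 for all genes tested. In KMS-11, 0 rose and 5 fell, with a median of -0.25 against -0.02. In U266, 1 rose and 7 fell, with a median of -0.14 against -0.01. In IM-9, 0 rose and 10 fell, with a median of -0.58 against -0.06. Without THRSP 0 of the group rose in U266, and the medians of the 14 genes left were 0.25, -0.25, -0.20 and -0.64, from RPMI8226 to IM-9 in the order above. Of the 3 activating enzymes, 1 rose and 0 fell in RPMI8226, 0 rose elsewhere, and 1, 2 and 3 fell in KMS-11, U266 and IM-9. The storage group was mixed, with 1 of 9 genes risen and 3 fallen in RPMI8226, 0 called in KMS-11, 2 risen and 1 fallen in U266, and 1 risen and 3 fallen in IM-9, and medians of -0.07, -0.01, 0.08 and -0.11. Of the 6 beta oxidation genes, 2 fell in RPMI8226, 0 were called in KMS-11, 1 fell in U266, and 2 rose and 1 fell in IM-9, with medians of -0.20, -0.06, -0.03 and 0.03. The counts of the activating, storage and oxidation groups are read against the shares of all genes given above. Some lie near them, as 1 of 9 storage genes risen in RPMI8226 beside 10.7% of all genes. Medians of all genes tested were -0.01, -0.02, -0.01 and -0.06 in the same order. Over the 11 synthesis genes above 6.27 in at least 2 of the 4 arrays of RPMI8226, a choice made after seeing the data, the median there was 0.36, and over the 12 such genes in IM-9 it was -0.72. The small medians moved with single arrays: that of storage to -0.13 in RPMI8226 and 0.05 in KMS-11 without the first parental array of the line and to -0.20 in IM-9 likewise, and that of oxidation to -0.10 in RPMI8226 without the first HR array and, in IM-9, to -0.01 without the first and 0.11 without the second parental array. In U266 that of storage, 0.082, moved to 0.038 without the first and 0.14 without the second HR array, and that of oxidation, -0.034, to 0.010 without the first and -0.068 without the second parental array.

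**Figure D1:**
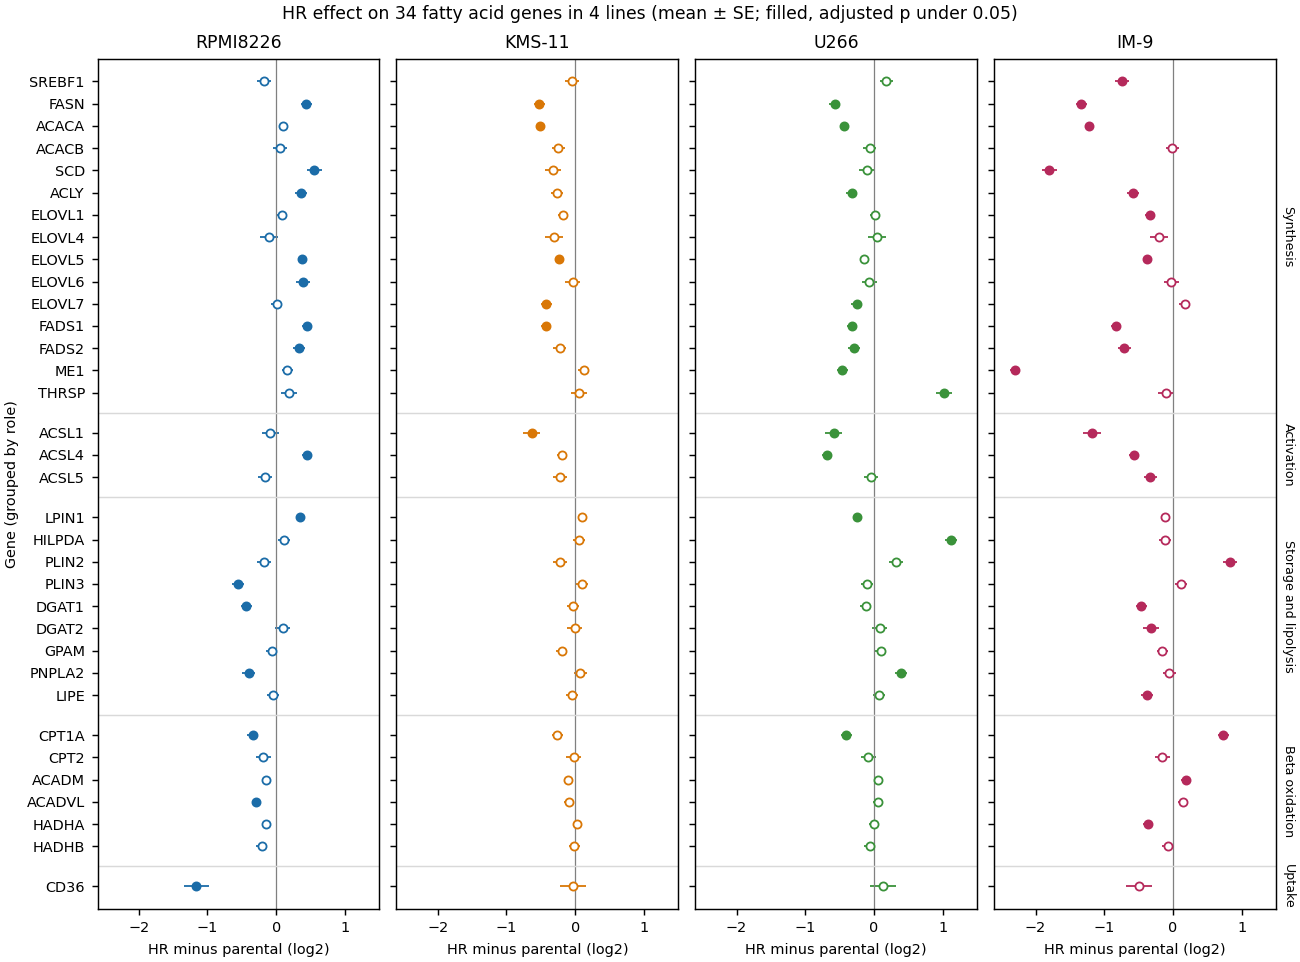
Difference between HR and parental cells (log2, horizontal axis) for each of 34 genes (vertical axis, grouped by role) in 4 lines; points are the fitted differences with standard errors from 2 arrays per group, filled where the adjusted p was under 0.05. In the synthesis block the filled points lie to the right of 0 in RPMI8226 and, apart from THRSP in U266, to the left in the other lines, where ME1 in IM-9 reaches -2.30.

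**Figure D2:**
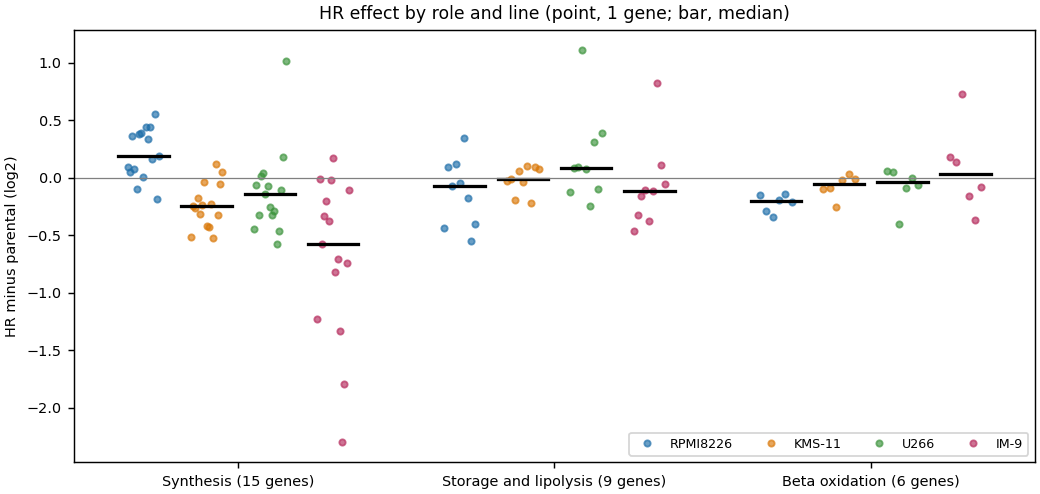
Difference between HR and parental cells (log2, vertical axis) for the genes of 3 roles, each point 1 gene and each bar the median over the genes of that role in 1 line, with lines in colour. The synthesis medians run from 0.19 in RPMI8226 to -0.58 in IM-9, whereas those of storage and beta oxidation lie between -0.20 and 0.08.

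Marker levels of other cell types moved with the HR state in some lines, and B cell markers did so most, in RPMI8226 and IM-9. The summed log2 level of the 7 markers was 66.2 to 66.6 in the parental IM-9 arrays and 62.6 in both HR arrays, and CR2 was no longer above 6.27. In RPMI8226 the sum was 50.1 to 50.5 in parental and 46.2 to 46.9 in HR arrays, and in KMS-11 and U266 it lay between 37.6 and 41.9 in all arrays. The sum of the 8 plasma cell markers went from 71.6 and 72.1 to 73.7 and 73.8 in RPMI8226, from 76.5 and 76.8 to 75.5 in both arrays of U266, and from 74.7 and 75.0 to 75.2 and 75.3 in IM-9. That of 5 T and NK cell markers, at most 1 of them (NCAM1) above 6.27, went from 27.8 and 27.9 to 26.5 and 26.6 in RPMI8226 and from 25.6 and 26.0 to 24.6 and 24.7 in U266. In KMS-11 it went the other way, from 23.7 and 23.9 to 24.1 and 24.5, and in IM-9 it overlapped. Of 6 macrophage markers, at most 2 were above 6.27 in both arrays of a group (CD68, and MSR1 in parental U266), and 0 in KMS-11. Their sum went from 29.1 and 29.4 to 29.8 and 29.9 in KMS-11. It went from 32.1 and 32.3 to 32.9 in both HR arrays of IM-9 and from 32.4 and 32.8 to 31.8 and 32.0 in U266. In RPMI8226 it overlapped. In bulk RNA fewer cells of a type and less RNA per cell cannot be told apart. The part of these changes in the results on the fatty acid genes was not tested.

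The members with the largest mean rise (HILPDA) and the largest mean fall (ACSL1) over the lines were chosen for promoters, with PLIN2, FASN and SCD. HILPDA and FASN had no entry among the RefSeq promoters used here. The 3 promoters shown are those of ACSL1, of SCD from the synthesis group, and of PLIN2, a droplet gene that is a known hypoxia target. Each is the 250 bases before the start of the gene in RefSeq on GRCh38.p14, 5′ to 3′ on the strand of the gene. Capitals mark ACGTG or GCGTG, the core letters of a hypoxia response element, and CCAAT, the NF-Y box, found on either strand (CACGC is GCGTG on the other strand).
ACSL1, chr4:184825969-184826218, minus strand: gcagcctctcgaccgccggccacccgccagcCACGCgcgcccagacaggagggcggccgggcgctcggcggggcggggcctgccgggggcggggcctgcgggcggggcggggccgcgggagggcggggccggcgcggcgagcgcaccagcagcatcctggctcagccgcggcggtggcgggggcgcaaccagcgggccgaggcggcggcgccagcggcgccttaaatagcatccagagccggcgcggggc
PLIN2, chr9:19127493-19127742, minus strand: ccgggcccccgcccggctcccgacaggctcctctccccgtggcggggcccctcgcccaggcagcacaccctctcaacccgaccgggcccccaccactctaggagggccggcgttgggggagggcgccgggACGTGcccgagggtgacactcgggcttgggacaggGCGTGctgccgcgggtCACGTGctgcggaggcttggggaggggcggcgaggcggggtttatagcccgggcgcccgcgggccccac
SCD, chr10:100346983-100347232, plus strand: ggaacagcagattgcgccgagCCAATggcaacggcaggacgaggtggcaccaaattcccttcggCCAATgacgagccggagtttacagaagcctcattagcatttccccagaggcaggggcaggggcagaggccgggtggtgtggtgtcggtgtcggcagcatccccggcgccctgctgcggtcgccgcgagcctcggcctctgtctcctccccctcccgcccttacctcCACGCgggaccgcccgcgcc
The PLIN2 window held ACGTG on both strands within the 6 letters CACGTG, 69 to 64 bases before the start, a further ACGTG 120 to 116 bases before it, and GCGTG 85 to 81 bases before it. SCD held CCAAT at 229 to 225 and at 186 to 182 bases before the start and GCGTG on the other strand at 20 to 16, and ACSL1 held GCGTG on the other strand at 219 to 215. Over the 30 members with a promoter in the RefSeq table, 17 held either hypoxia core on either strand, against 43.1% of 27305 promoters of the same length. ACGTG alone was in 6 (18.7% of all promoters), GCGTG in 13 (31.9%) and CCAAT in 8 (33.0%). The sterol regulatory element TCACNCCAC was in 1, PNPLA2, and in 0.875% of all promoters. These matches describe letters in the window only.

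Among the central enzymes of synthesis, FASN, the fatty acid synthase itself, was called in every line. In RPMI8226 its log2 intensities were 9.88 and 9.83 in the parental arrays and 10.17 and 10.42 in the HR arrays, a rise of 0.44 ± 0.08 (adjusted p = 0.00141). In KMS-11 it fell from 9.44 and 9.38 to 8.93 and 8.84 and in U266 from 8.43 and 8.51 to 7.89 and 7.90, with differences of -0.52 ± 0.08 (adjusted p = 0.00213) and -0.57 ± 0.08 (adjusted p = 2.36e-04). In IM-9 it fell from 9.85 and 9.85 to 8.45 and 8.57, a 2.53-fold lower intensity (adjusted p = 1.18e-07). Both HR arrays stood above both parental arrays in RPMI8226 and below them in the other 3 lines. ACACA, which makes the malonyl-CoA that FASN uses, fell in the same 3 lines: from 9.00 and 9.06 to 8.53 and 8.51 in KMS-11, from 8.43 and 8.42 to 7.98 and 7.98 in U266, and from 8.94 and 8.98 to 7.71 and 7.75 in IM-9. The differences were -0.51 ± 0.05, -0.44 ± 0.05 and -1.23 ± 0.05 (adjusted p = 1.29e-04, 6.41e-05 and 5.66e-09), and its arrays overlapped in none of the 3 lines. In RPMI8226 the ACACA difference was 0.10 ± 0.05 and did not pass. ACACB, its mitochondrial counterpart, was above 6.27 in 4 of 16 arrays, those of U266, and its differences lay between -0.25 and 0.05 without a call.

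ACLY, the citrate-splitting enzyme, rose in RPMI8226 from 10.71 and 10.81 to 10.98 and 11.27, by 0.36 ± 0.08 (adjusted p = 0.00609). It fell in U266 from 10.07 and 10.00 to 9.67 and 9.75 (-0.33 ± 0.08, adjusted p = 0.0152), and in IM-9 from 10.51 and 10.53 to 9.94 and 9.93 (-0.58 ± 0.08, adjusted p = 1.64e-04). The arrays overlapped in none of these lines, but the RPMI8226 call was lost without the second HR array (0.22, adjusted p = 0.0559). The U266 call was lost without the first parental array (-0.29, adjusted p = 0.105) or the first HR array (-0.29, adjusted p = 0.116). In KMS-11 the ACLY difference of -0.26 ± 0.08 did not pass but did without either RPMI8226-HR array (adjusted p = 0.0211). ME1, the malic enzyme that yields NADPH, fell in IM-9 from 8.17 and 8.41 in the parental arrays to 5.98 and 5.99 in the HR arrays, a fitted difference of -2.30 ± 0.08 (adjusted p = 7.48e-10). Both HR arrays lie below the filter level of 6.27, so the size of this difference is uncertain. In U266 ME1 fell from 9.24 and 9.10 to 8.69 and 8.73 (-0.46 ± 0.08, adjusted p = 8.62e-04), and in RPMI8226 and KMS-11 its differences of 0.16 ± 0.08 and 0.12 ± 0.08 did not pass. SREBF1, the lipogenic transcription factor, fell in IM-9 (-0.74 ± 0.10, adjusted p = 9.74e-05) and was not called elsewhere. Its differences were -0.18 ± 0.10 in RPMI8226, -0.05 ± 0.10 in KMS-11 and 0.18 ± 0.10 in U266. In RPMI8226 and U266 the sign was thus opposite to that of FASN, but neither difference passed. In U266 the HR and parental arrays of SREBF1 overlapped, with 1 parental array (6.13) below 6.27. THRSP, a small protein tied to lipogenesis, was higher in HR cells of U266: its arrays read 6.05 and 5.97 in parental and 7.19 and 6.86 in HR cells, a fitted difference of 1.02 ± 0.12. Those 2 U266-HR arrays were the only ones of 16 in which THRSP exceeded 6.27, and without either of them it was too dim to be tested. It thus passed the filter through the group in which it was high, and its difference is given as a description.

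The desaturases followed FASN in direction. SCD, the stearoyl-CoA desaturase that makes oleate, rose in RPMI8226 from 11.02 and 11.07 to 11.48 and 11.72, by 0.56 ± 0.11 (adjusted p = 0.00256). In IM-9 it fell from 10.88 and 11.07 to 8.99 and 9.37, a 3.48-fold lower intensity (adjusted p = 1.55e-07). In both lines the arrays stood clear of each other, while in KMS-11 and U266 the differences of -0.32 ± 0.11 and -0.10 ± 0.11 did not pass (the KMS-11 difference did without either IM-9-HR array, adjusted p = 0.0432 and 0.0433). FADS1 and FADS2, the delta-5 and delta-6 desaturases of polyunsaturated fatty acids, are neighbours on chromosome 11. FADS1 rose in RPMI8226 from 10.75 and 10.73 to 11.09 and 11.28 (0.45 ± 0.07, adjusted p = 5.38e-04) and fell in KMS-11 from 9.10 and 9.15 to 8.70 and 8.69 (-0.43 ± 0.07, adjusted p = 0.00335). It also fell in U266, from 10.71 and 10.66 to 10.35 and 10.38 (-0.33 ± 0.07, adjusted p = 0.00631), and in IM-9, from 10.56 and 10.71 to 9.82 and 9.80 (-0.82 ± 0.07, adjusted p = 2.64e-06). Its HR arrays were thus on the high side in RPMI8226 and on the low side in the other lines, with no overlap. The U266 call of FADS1 was lost without the first parental array (adjusted p = 0.0535) or the first HR array (adjusted p = 0.0528). FADS2 rose in RPMI8226 from 11.50 and 11.56 to 11.74 and 11.99, by 0.34 ± 0.09 (adjusted p = 0.0148). It fell in U266 from 9.81 and 9.74 to 9.48 and 9.50 (-0.29 ± 0.09, adjusted p = 0.0416) and in IM-9 from 10.67 and 10.75 to 9.97 and 10.04 (-0.71 ± 0.09, adjusted p = 6.21e-05). Its RPMI8226 call was lost without the first parental array (0.31, adjusted p = 0.0768) or the second HR array (0.21, adjusted p = 0.139). Its U266 call was lost without any 1 of the 4 U266 arrays, with adjusted p between 0.0969 and 0.197, and without either KMS-11-HR or IM-9-HR array (adjusted p between 0.0535 and 0.0550).

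Of the elongases, ELOVL5, which lengthens polyunsaturated chains, rose in RPMI8226 from 10.16 and 10.25 to 10.59 and 10.59, by 0.38 ± 0.06 (adjusted p = 2.54e-04). It fell in KMS-11 from 11.06 and 11.06 to 10.85 and 10.81 (-0.23 ± 0.06, adjusted p = 0.0218), and in IM-9 from 11.21 and 11.25 to 10.87 and 10.84 (-0.38 ± 0.06, adjusted p = 1.99e-04). The arrays did not overlap in these lines, and the KMS-11 call was lost without any 1 of the 4 KMS-11 arrays, with values of -0.25 to -0.21 and adjusted p of 0.0843 to 0.144. ELOVL6, which lengthens palmitate to stearate, rose in RPMI8226 by 0.39 ± 0.10 (adjusted p = 0.0151), a call lost without the second parental array (0.31, adjusted p = 0.119) or the second HR array (0.32, adjusted p = 0.101). ELOVL7 fell in KMS-11 (-0.42 ± 0.08) and in U266 (-0.26 ± 0.08, adjusted p = 0.00671 and 0.0437). Its KMS-11 call was lost without the first parental array (-0.39, adjusted p = 0.0671) or the second HR array (-0.37, adjusted p = 0.0723). Its U266 call was lost without any 1 of the 4 U266 arrays (-0.31 to -0.21, adjusted p of 0.0780 to 0.248) and without either array of RPMI8226-HR, KMS-11 parental, KMS-11-HR or IM-9-HR. ELOVL1 fell in IM-9 (-0.33 ± 0.07, adjusted p = 0.00369), and ELOVL4, which serves very long chains, was called nowhere. In IM-9 ELOVL7 passed as a rise of 0.29 without the second parental array (adjusted p = 0.0148).

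**Figure D3:**
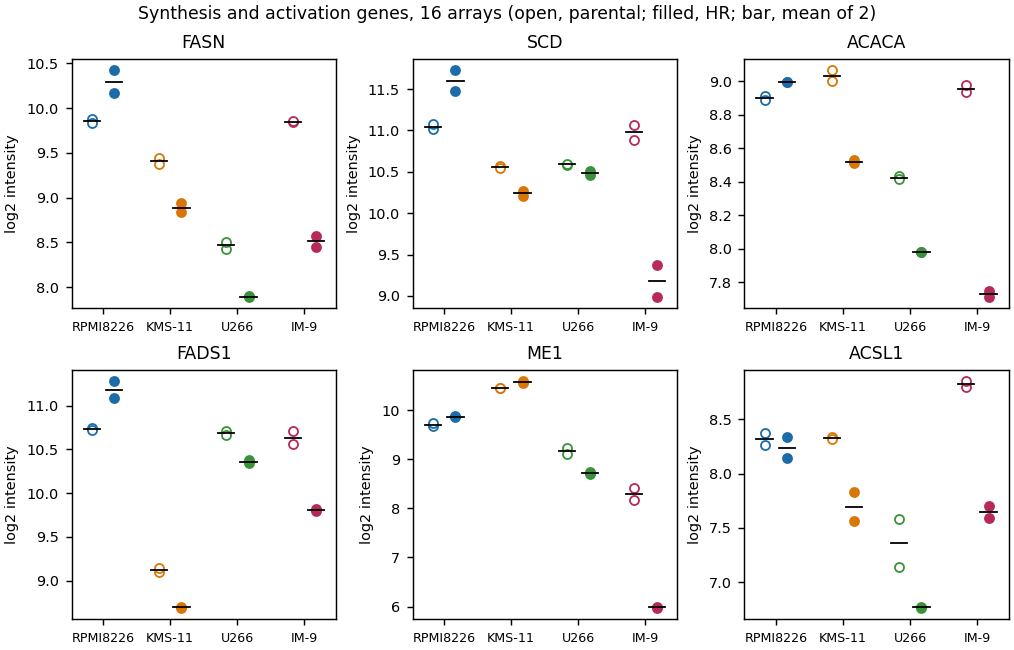
Log2 intensity (vertical axis) of FASN, SCD, ACACA, FADS1, ME1 and ACSL1 in all 16 arrays, by line (horizontal axis), with open points for parental cells at 20% oxygen, filled points for HR cells at 1% oxygen and a bar for the mean of 2 arrays. FASN, SCD and FADS1 are higher in RPMI8226-HR and lower in IM-9-HR than in the parental arrays, and ME1 in IM-9 falls to 5.98 and 5.99.

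Acyl-CoA synthetases activate fatty acids for every later use. ACSL1, a synthetase serving both triglyceride synthesis and oxidation, had differences of -0.08, -0.63, -0.59 and -1.18, with the lines in the order RPMI8226, KMS-11, U266, IM-9. It fell in KMS-11 from 8.33 and 8.32 to 7.56 and 7.83, in U266 from 7.58 and 7.14 to 6.77 and 6.77, and in IM-9 from 8.80 and 8.85 to 7.59 and 7.70 (adjusted p = 0.00835, 0.00500 and 1.44e-05). Its arrays overlapped only in RPMI8226, where it was not called. The KMS-11 call was lost without the first parental (-0.63, adjusted p = 0.0593), the second parental (-0.64, adjusted p = 0.0557) or the first HR array (-0.50, adjusted p = 0.0932). The U266 call was lost without the first parental array (-0.37, adjusted p = 0.0608), which made the difference more than 1.5 times smaller. ACSL4, which prefers arachidonate, rose in RPMI8226 from 8.30 and 8.35 to 8.77 and 8.78, by 0.45 ± 0.07 (adjusted p = 4.67e-04). It fell in U266 from 8.30 and 8.29 to 7.63 and 7.59 (-0.69 ± 0.07, adjusted p = 1.70e-05), and in IM-9 from 9.65 and 9.78 to 9.14 and 9.15 (-0.57 ± 0.07, adjusted p = 5.54e-05). In each of the 3 lines HR and parental arrays of ACSL4 were apart. ACSL5 fell in IM-9 (-0.33 ± 0.10, adjusted p = 0.0212), a call lost without the second parental (-0.29, adjusted p = 0.0918) or the second HR array (-0.27, adjusted p = 0.139).

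Storage genes were called in both directions, and the largest rises were of different droplet proteins in different lines. HILPDA, a lipid droplet protein that inhibits the lipase PNPLA2, rose in U266, from 6.89 and 6.92 in parental to 8.08 and 7.96 in HR arrays, a 2.16-fold higher intensity (1.11 ± 0.09, adjusted p = 1.11e-06). In RPMI8226, KMS-11 and IM-9 its HR and parental arrays overlapped, with differences of 0.12 ± 0.09, 0.06 ± 0.09 and -0.11 ± 0.09. The U266 difference exceeded the mean of the other 3 lines by 1.09 ± 0.10 (adjusted p = 6.90e-06); parental U266 was also the line with the lowest HILPDA level, 6.90, against 7.27 to 7.95 in the others. PLIN2, which coats lipid droplets, rose in IM-9 from 8.65 and 8.98 to 9.62 and 9.68, by 0.83 ± 0.10 or 1.78-fold (adjusted p = 4.66e-05). In U266 it read 7.68 and 7.55 in parental and 7.90 and 7.97 in HR arrays, and this difference of 0.31 ± 0.10 missed the threshold (adjusted p = 0.0507) but passed it without either RPMI8226 parental array (adjusted p = 0.0372) or either IM-9 parental array (adjusted p = 0.0150). PLIN2 arrays did not overlap in any line, with HR above parental in U266 and IM-9 and below it in RPMI8226 (-0.17) and KMS-11 (-0.22), where it was not called. PLIN3, a droplet coat protein of wider tissue range, fell in RPMI8226 from 8.27 and 8.39 to 7.64 and 7.91 (-0.55 ± 0.09, adjusted p = 4.87e-04). Elsewhere its differences lay between -0.10 and 0.12.

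PNPLA2, the adipose triglyceride lipase that starts lipolysis, fell in RPMI8226 from 8.65 and 8.61 to 8.15 and 8.30 (-0.40 ± 0.09, adjusted p = 0.00616), and rose in U266 from 8.18 and 8.21 to 8.67 and 8.50, by 0.39 ± 0.09 (adjusted p = 0.00965). The HR arrays were both below the parental arrays in the first line and both above them in the second. The RPMI8226 call was lost without the first HR array (-0.32, adjusted p = 0.0624), and the U266 call without the first parental (0.38, adjusted p = 0.0622) or the first HR array (0.31, adjusted p = 0.107). LPIN1, the phosphatidate phosphatase ahead of triglyceride assembly, rose in RPMI8226 from 9.34 and 9.44 to 9.66 and 9.81, by 0.35 ± 0.06 (adjusted p = 0.00159), and fell in U266 from 10.63 and 10.60 to 10.38 and 10.35 (-0.25 ± 0.06, adjusted p = 0.0180). Neither pair of LPIN1 groups overlapped, and the U266 call was lost without any 1 of the 4 U266 arrays (-0.27 to -0.23, adjusted p of 0.0615 to 0.110). DGAT1, which completes triglyceride, fell in RPMI8226 (-0.43 ± 0.08) and in IM-9 (-0.46 ± 0.08, adjusted p = 0.00202 and 0.00101). DGAT2, an unrelated enzyme of the same reaction, fell in IM-9 (-0.32 ± 0.11, adjusted p = 0.0407), a call lost without any 1 of the 4 IM-9 arrays (-0.40 to -0.24, adjusted p of 0.0562 to 0.227) and without either array of KMS-11 parental, KMS-11-HR or U266-HR. LIPE, the hormone-sensitive lipase, fell in IM-9 (-0.38 ± 0.09, adjusted p = 0.00455). GPAM, the mitochondrial enzyme of the first acylation, had differences of -0.19 to 0.10 and no call.

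**Figure D4:**
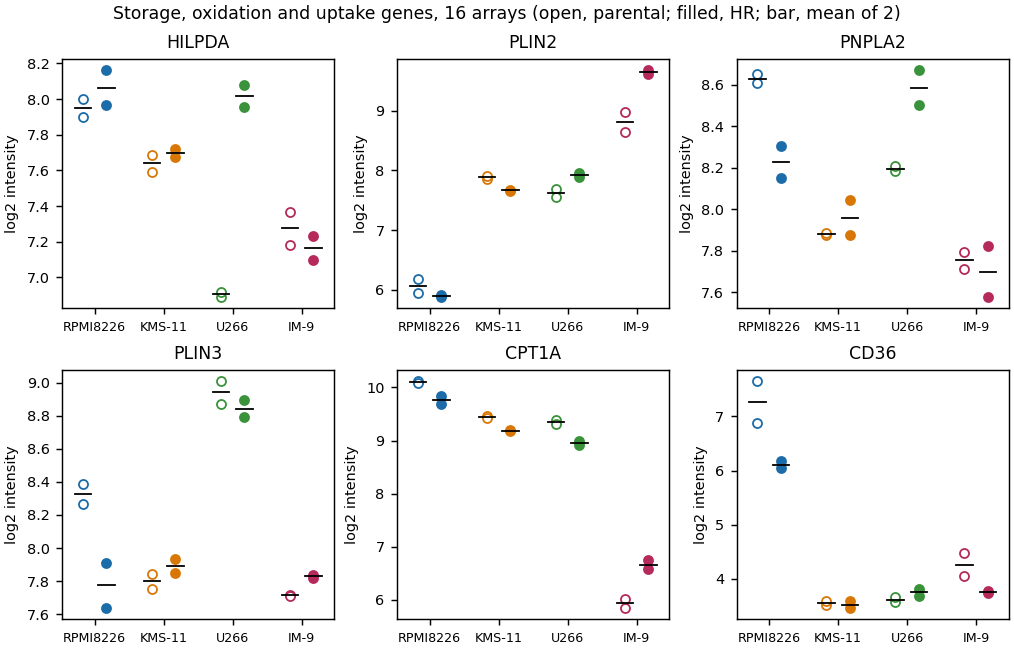
Log2 intensity (vertical axis) of HILPDA, PLIN2, PNPLA2, PLIN3, CPT1A and CD36 in all 16 arrays, by line (horizontal axis), with open points for parental cells at 20% oxygen, filled points for HR cells at 1% oxygen and a bar for the mean of 2 arrays. HILPDA separates by condition in U266 (6.89 and 6.92 against 8.08 and 7.96) and overlaps in the other lines, and CPT1A lies lowest in IM-9, where it is higher in HR cells.

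Among the oxidation genes CPT1A, the gate for long-chain fatty acids into mitochondria, was called in the direction opposite to FASN and SCD in both RPMI8226 and IM-9. It fell in RPMI8226 from 10.12 and 10.08 to 9.84 and 9.68 (-0.34 ± 0.08, adjusted p = 0.00691), and in U266 from 9.39 and 9.31 to 8.92 and 8.99 (-0.40 ± 0.08, adjusted p = 0.00302). In IM-9 it rose from 6.02 and 5.85, both below the filter level of 6.27, to 6.58 and 6.75 (0.73 ± 0.08, adjusted p = 1.73e-05), so the size of this rise is uncertain. HR arrays were below parental arrays in RPMI8226, KMS-11 (-0.26, adjusted p = 0.0673) and U266 and above them in IM-9, whose HR level still lay under those of the other 3 lines. The KMS-11 difference passed without either IM-9 parental array (adjusted p = 0.0475 and 0.0474). The RPMI8226 call was lost without the second HR array (-0.26, adjusted p = 0.0647). The dehydrogenase of very long chains, ACADVL, fell in RPMI8226 (-0.29 ± 0.07, adjusted p = 0.00811), a call lost without the first parental (-0.22, adjusted p = 0.0684) or the second HR array (-0.23, adjusted p = 0.0662). The medium-chain dehydrogenase ACADM rose in IM-9 by 0.18 ± 0.06 (adjusted p = 0.0403), the smallest difference that was called. That call was lost without the first parental (0.13, adjusted p = 0.218), the first HR (0.22, adjusted p = 0.0644) or the second HR array of IM-9 (0.15, adjusted p = 0.217), and without either KMS-11 parental or U266-HR array or the first KMS-11-HR array. HADHA, a subunit of the trifunctional protein, fell in IM-9 (-0.36 ± 0.07, adjusted p = 0.00101), while its partner HADHB had differences of -0.21 to -0.01 and CPT2, the inner membrane transferase, -0.19 to -0.02, without a call. Without 1 array, HADHB passed in RPMI8226 (-0.29 without the first parental array and -0.32 without the second HR array) and CPT2 in IM-9 (-0.34 without the first parental array).

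CD36, a fatty acid uptake receptor, was above 6.27 only in the parental RPMI8226 arrays. Its arrays there read 7.65 and 6.88 in parental and 6.05 and 6.17 in HR cells, a fitted difference of -1.16 ± 0.19. CD36 thus passed the filter through the group in which it was high, and its difference is given as a description. The 2 parental arrays were 0.77 apart, the widest gap between arrays of a group among all members, yet both exceeded both HR arrays. In the other lines CD36 read between 3.47 and 4.48 and was not called, except that it passed in IM-9 without the first parental array (-0.71, adjusted p = 0.0258).

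The effect on 26 of the 34 members differed between lines by an F test, beside 45.4% of all genes, and on 24 of the 32 without THRSP and CD36. The contrast of 1 line with the mean of the other 3 was chosen knowing that RPMI8226 went the other way for lipid synthesis genes. For RPMI8226 it therefore describes a pattern already seen in these arrays and is no separate support for it. Against the mean of the other 3 lines, 18 members differed in RPMI8226 (12 above, 6 below) and 23 in IM-9 (6 above, 17 below), beside 26.8% and 30.8% of all genes. U266 had 9 such members and KMS-11 3, beside 24.7% and 9.52% of all genes. Without THRSP and CD36, 5 were below in RPMI8226 and 16 below in IM-9, and U266 had 4 above and 3 below. In RPMI8226, 9 of the 15 synthesis genes stood above the other lines and 0 below, among them FADS1 (0.97 ± 0.08, adjusted p = 3.37e-06), FASN (1.25 ± 0.09, adjusted p = 9.26e-07) and ME1 (1.04 ± 0.09, adjusted p = 2.96e-06). In IM-9, 11 stood below and 1, ELOVL7, above. The 4 effects share no arrays, but each contrast of 1 line with the rest uses all 4 of them, so that a strong fall in IM-9 also raises the RPMI8226 contrast: ME1, with 1.04 ± 0.09 there, was not called within RPMI8226. The count for KMS-11 was 1 without the second KMS-11-HR array and 5 without the second RPMI8226-HR or second IM-9 parental array.

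With the line as the unit (n = 4 lines), 0 members were called by limma across lines, and 0% of all genes were. The smallest adjusted p among members was 0.764. At an unadjusted p under 0.05, 0 members were higher and 4 were lower in HR cells (ACACA, ACSL1, ACSL5 and DGAT1), and 793 of all genes passed it. ACSL1 had a mean difference of -0.62 ± 0.17, ME1 also of -0.62 but with a standard error of 0.41, and DGAT1 of -0.26 ± 0.10. Lower in 4 of 4 lines, by sign alone, were 5 members (ACSL1, ACSL5, DGAT1, CPT2 and HADHB), beside 1385 of the 12639 genes, and higher in 4 of 4 lines were 0, beside 692 of them.

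Parental cells differed in these genes about as often as in all genes tested. By an F test between the 4 parental groups 31 of 34 members differed, beside 94.3% of all genes. Without THRSP and CD36 the count was 30 of 32. THRSP, CPT2 and HADHA did not pass (adjusted p = 0.0668, 0.257 and 0.105). FADS2 had the widest range, from 6.25 in KMS-11, just under the filter level, through 9.77 in U266 and 10.71 in IM-9 to 11.53 in RPMI8226. ACSL5 read 5.10 in U266 and 9.16 to 9.51 in the other lines. CPT1A read 5.94 in IM-9 against 9.35 in U266, 9.44 in KMS-11 and 10.10 in RPMI8226, so the line in which CPT1A rose was the one with the lowest parental level. PLIN2 was lowest in RPMI8226 (6.07) and highest in IM-9 (8.82), the line in which it rose. Other wide ranges were those of ELOVL4 (4.42 in IM-9 to 8.41 in U266), ELOVL7 (5.70 in RPMI8226 to 9.53 in U266) and ME1 (8.29 in IM-9 to 10.45 in KMS-11). FASN was lowest in U266 (8.47) and close to equal in RPMI8226 and IM-9 (9.86 and 9.85), the lines in which it then moved in opposite directions. SCD lay within 0.49 over the 4 parental lines.

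**Figure D5:**
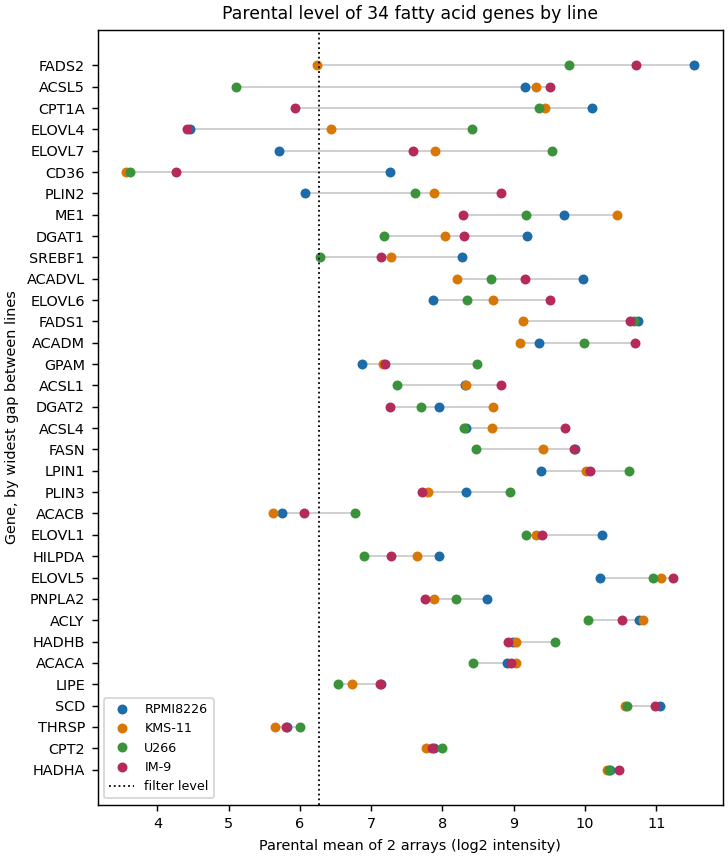
Mean log2 intensity of 2 parental arrays (horizontal axis) for each of 34 genes (vertical axis, ordered by the widest gap between lines), with lines in colour and the filter level of 6.27 dotted. FADS2, ACSL5 and CPT1A each have 1 line far below the rest, KMS-11, U266 and IM-9 in turn, and HADHA at the bottom spans 0.17.

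Other genes of the same pathways were counted from lists of the wider pathway that exclude the members; medians follow the order RPMI8226, KMS-11, U266, IM-9. Of all genes tested, 10.7% rose and 15.3% fell in RPMI8226, 2.44% and 5.83% in KMS-11, 9.68% and 8.42% in U266, and 14.4% and 21.3% in IM-9, with medians of -0.01, -0.02, -0.01 and -0.06, and the counts of the lists are read against these shares. Of 13 other synthesis genes tested (18 listed), 2 rose and 4 fell in RPMI8226, 0 and 1 in KMS-11, 3 and 0 in U266, and 0 and 7 in IM-9, with medians of -0.02, -0.09, -0.07 and -0.30. ACSS2, which makes acetyl-CoA from acetate, rose in RPMI8226 (1.02 ± 0.12) and U266 (0.67 ± 0.12) and fell in KMS-11 (-0.63 ± 0.12) and IM-9 (-0.93 ± 0.12), with adjusted p between 5.61e-05 and 0.00768. PCYT2, of phosphatidylethanolamine synthesis, fell in IM-9 (-1.04 ± 0.10, adjusted p = 5.73e-06) and rose by 0.32 ± 0.10 in RPMI8226 (adjusted p = 0.0326), and HACD2, an elongation dehydratase, fell in RPMI8226 (-0.59 ± 0.06, adjusted p = 8.92e-06).

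Of 10 genes that control SREBP or lipogenesis (14 listed), 2 rose and 1 fell in RPMI8226, 1 and 2 in KMS-11, 1 and 1 in U266, and 2 and 2 in IM-9, with medians of 0.12, 0.01, -0.11 and -0.05. INSIG1, which holds the SREBP complex in the endoplasmic reticulum and is itself an SREBP target, read 10.42 and 10.36 in parental and 11.21 and 11.39 in HR arrays of RPMI8226, and 10.76 and 10.79 against 9.37 and 9.40 in IM-9. It rose by 0.91 ± 0.06 in RPMI8226 and fell in KMS-11 (-0.47 ± 0.06), U266 (-0.66 ± 0.06) and IM-9 (-1.39 ± 0.06; adjusted p = 5.20e-07, 8.47e-04, 9.73e-06 and 1.07e-08), the directions that FASN took. INSIG2, its paralogue and a known hypoxia-inducible gene, rose in all 4 lines, by 0.44, 0.46, 1.06 and 0.69 (adjusted p = 0.00182, 0.00520, 1.39e-06 and 4.62e-05), with no overlap between HR and parental arrays in any line. SREBF2, the regulator of sterol synthesis, fell in IM-9 (-0.69 ± 0.08, adjusted p = 4.42e-05).

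Of 18 other genes of droplets, triglyceride and lipolysis (26 listed), 5 rose and 3 fell in RPMI8226, 1 and 2 in KMS-11, 4 and 3 in U266, and 2 and 3 in IM-9, with medians of 0.07, 0.01, 0.05 and -0.13. SPART, a protein that binds lipid droplets, rose by 0.71 ± 0.06 in RPMI8226, 1.08 ± 0.06 in U266 and 0.17 ± 0.06 in IM-9 (adjusted p = 3.35e-06, 5.90e-08 and 0.0433), in RPMI8226 at intensities of 3.86 to 4.61, below the filter level. MOGAT2 exceeded 6.27 only in the 2 RPMI8226-HR arrays, which read 6.28 and 6.52 against 5.19 and 5.73 in parental cells, so it passed the filter through the group in which it was high; without it and AGPAT4, which also passed through 1 group, 4 of 16 rose in RPMI8226. LIPA, the lysosomal acid lipase, fell in IM-9 (-0.93 ± 0.09, adjusted p = 5.20e-06). Of 24 other oxidation genes (29 listed), 1 rose and 8 fell in RPMI8226, 0 and 0 in KMS-11, 0 and 2 in U266, and 1 and 3 in IM-9, with medians of -0.15, -0.09, -0.01 and -0.03. ECI2, an isomerase for unsaturated chains, fell in RPMI8226 from 6.97 and 7.14 to 5.45 and 5.48, below the filter level (-1.60 ± 0.08, adjusted p = 2.53e-08), and ACAD9, an acyl-CoA dehydrogenase that also assembles complex I, fell there (-1.04 ± 0.08) and in IM-9 (-0.37 ± 0.08, adjusted p = 6.55e-07 and 0.00240). PPARGC1A, a coactivator of mitochondrial genes, fell in U266 (-0.91 ± 0.15, adjusted p = 8.71e-04). Of 8 other uptake genes (16 listed), 2 rose and 1 fell in RPMI8226, 1 and 0 in KMS-11, 2 and 1 in U266, and 0 and 3 in IM-9, with medians of 0.13, -0.13, -0.01 and -0.02. VLDLR, the lipoprotein receptor, rose by 0.91 ± 0.08 in RPMI8226, 0.98 ± 0.08 in KMS-11 and 0.81 ± 0.08 in U266 (adjusted p = 2.92e-06, 1.10e-05 and 9.41e-06), with all 4 arrays of RPMI8226 and both parental arrays of KMS-11 below the filter level, while in IM-9 its difference was 0.03 ± 0.08. SLC27A4, a fatty acid transport protein, fell in U266 (-0.28 ± 0.06) and in IM-9 (-0.37 ± 0.06, adjusted p = 0.00342 and 2.45e-04), and FABP6 rose in RPMI8226 by 0.35 ± 0.08 and in U266 by 0.35 ± 0.08 (adjusted p = 0.00637 and 0.00791).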

How the data were processed

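Gene expression was measured on 16 arrays, 2 in each of 8 groups taken from the sample labels. The authors deposited log2 intensities for 33297 probe sets. Per the submitters' processing notes they used Affymetrix Expression Console 1.3.0; the background correction and normalization are not given in the sources used here. Gene names came from the platform table, in which 19460 probe sets carried 1 symbol, 1754 several and 12083 were not listed, and 19429 of the 19460 matched RefSeq (GRCh38.p14). Symbols are those of the array's design, updated through Entrez identifiers. Several probe sets stood for 769 genes, and the brightest was kept. Genes above 6.27 in at least 2 arrays were tested (12639 of 18417).

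The 2-sided moderated tests of limma 3.58.1, run in R 4.3.3, covered 8 groups sharing 1 spread, with Benjamini-Hochberg adjustment over all genes and a threshold of 0.05; the fit was tested on simulated data. Across lines, 8 means of 2 arrays were fitted with line as a blocking term. The number of arrays limits the precision. The members and gene lists were chosen with earlier results of these data known. So was the contrast of 1 line with the mean of the other 3. Array values are given for members called in at least 3 lines, called in both directions, or among the 2 largest rises or falls of a line, and for pathway lists up to 3 genes with the largest change. Array numbers 1 and 2 did not clearly pair groups: over 28 pairs of groups the differences between arrays correlated at -0.20 to 0.20. Between the HR and parental groups of the same line (n = 4 pairs) the range was -0.05 to 0.20, with 2 above 0.1. Alternatives covered normalization, filters, spread models, array weights, probe sets, a 1.5-fold test, a replicate block and leaving out each array or line.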

Additional observations from a re-analysis of the deposited data

Results flagged for a closer look

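For 26 of the 34 genes the F test found that the HR effect differed between lines. The gap between the highest and the lowest line's effect is given here on the log2 scale, with the adjusted p of the F test in limma for the widest gaps. ME1 had a gap of 2.47 (adjusted p = 1.12e-08) and SCD one of 2.36 (adjusted p = 1.19e-06), both from RPMI8226 as the highest line to IM-9 as the lowest. The same lines bounded the gaps of FASN (1.78), ACACA (1.32), FADS1 (1.27), ACSL1 (1.10), FADS2 (1.04), ACLY (0.94), ELOVL5 (0.76) and ELOVL1 (0.41). RPMI8226 was the highest and U266 the lowest line for ACSL4 (1.14) and LPIN1 (0.59). U266 was the highest line for HILPDA (1.22), THRSP (1.12), SREBF1 (0.92) and LIPE (0.45), with IM-9 the lowest, and for CD36 (1.29) and PNPLA2 (0.79), with RPMI8226 the lowest. THRSP and CD36 exceeded the filter level of 6.27 in the arrays of 1 group only, and ME1 in IM-9-HR and CPT1A in parental IM-9 lay below it. IM-9 was the highest line for CPT1A (1.13, lowest in U266), PLIN2 (1.05, lowest in KMS-11), PLIN3 (0.67, lowest in RPMI8226), ELOVL7 (0.59, lowest in KMS-11), ACADVL (0.43, lowest in RPMI8226) and ACADM (0.33, lowest in RPMI8226). KMS-11 was the highest and IM-9 the lowest line for DGAT1 (0.43) and HADHA (0.39).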

How the results depend on the processing

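Of 55 gene and line values past the threshold, 0 changed direction under any of 23 alternatives. Of the 55, 36 stayed past it under every alternative that gave them a value, and 19 were lost under at least 1. The 36 include THRSP in U266 and CD36 in RPMI8226, which some alternatives could not test. The 23 leave out the 1.5-fold rule. All 19 were lost without 1 array, and 7 of them also under another setting. With no filter ELOVL5 in KMS-11, ELOVL7 and FADS2 in U266, and DGAT2 and ACADM in IM-9 were lost. Array weights lost FADS2 in RPMI8226 and ACSL5, DGAT2 and ACADM in IM-9, and quantile normalization lost ACADM in IM-9. Of the values not past the threshold, 10 passed it under at least 1 alternative. Array weights called SCD, ACLY, ACSL4 and CPT1A in KMS-11 and ELOVL5 and PLIN2 in U266. The trended robust spread called ACLY and CPT1A in KMS-11, ELOVL5 and PLIN2 in U266, HADHB in RPMI8226 and CD36 in IM-9. Quantile normalization called ELOVL5 and PLIN2 in U266 and CD36 in IM-9. The stricter filter called PLIN2 in U266 and CPT1A in KMS-11. A rule of at least 1.5-fold beside the threshold left 0 risen and 1 fallen in RPMI8226, 0 and 1 in KMS-11, 2 and 2 in U266, and 2 and 8 in IM-9, beside 2.74% and 3.32%, 0.696% and 0.562%, 2.97% and 1.78%, and 4.15% and 3.33% of all genes. With array weights 10 fell in KMS-11, and members whose KMS-11 effect differed from the other 3 lines numbered 6, or 5 with a trended robust spread. Leaving out 1 array gave 6 to 9 risen in RPMI8226, 3 to 7 fallen in KMS-11, 1 to 4 risen and 5 to 11 fallen in U266, and 1 to 5 for that KMS-11 difference. Across lines, 20 members were called when the spread between arrays replaced that between lines, and 20 with a replicate block as well; that spread leaves out variation between lines. The stricter filter (6.91 in at least 4 arrays) moved the synthesis median to 0.34 in RPMI8226, -0.26 in U266 and -0.71 in IM-9, and genes bright in that line, an alternative added after seeing the data, to 0.36 and -0.72 in RPMI8226 and IM-9. Quantile normalization moved the synthesis median in U266 to -0.17, the droplet median in KMS-11 to 0.045 and the oxidation median in KMS-11 to -0.022. Leaving out 1 array gave synthesis medians of 0.18 to 0.26 in RPMI8226, -0.33 to -0.22 in KMS-11, -0.20 to -0.13 in U266 and -0.64 to -0.57 in IM-9. It gave droplet medians of -0.13 to -0.061 in RPMI8226, -0.0060 to 0.047 in KMS-11, 0.038 to 0.14 in U266 and -0.20 to -0.083 in IM-9, and oxidation medians of -0.24 to -0.10, -0.057 to -0.041, -0.068 to 0.010 and -0.0078 to 0.11 in the same order. Without either U266-HR array THRSP was too dim to test, which shifted the synthesis medians of other lines; CD36 gave no value under the stricter filter or without either RPMI8226 parental array. The replicate block, although the array numbers do not clearly pair groups, gave 9 risen and 7 fallen in RPMI8226, 0 and 6 in KMS-11, 4 and 10 in U266 and 3 and 17 in IM-9: ELOVL7 in U266 missed the threshold (adjusted p = 0.0519) and PLIN2 in U266 (0.0426) and HADHB in RPMI8226 (0.0479) passed it. Signal over background limits THRSP, CD36, ACACB and ELOVL4, which were above the filter level in 2, 2, 4 and 7 of 16 arrays, and within single lines PLIN2 and ELOVL7 in RPMI8226 and ACSL5 in U266 (0 of 4 arrays), FADS2 in KMS-11 (1 of 4), ME1 and CPT1A in IM-9 (2 of 4) and SREBF1 in U266 (3 of 4).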
